A study of Drosophila melanogaster with 6 samples.

Results

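Many housekeeping proteins of Drosophila melanogaster have a second gene copy whose use is known mainly from the testis or the ovary. The 9 genes described here are such copies or relatives: Taf12L and can (TFIID), COX4L (cytochrome oxidase), ATPsynepsilonL (ATP synthase), Prosbeta4R1 (proteasome), Uch-L5R (deubiquitinase), TrxT and dhd (thioredoxins) and Sdic2 (dynein). They were picked by name, with their values known, from the 3326 genes at an adjusted p below 0.05 in the authors' deposited table, so their own ratios are a description and no test. In the wild type animals used here, females of a line with UAS::Dcr-2, insc::Gal4 and UAS::CD8-GFP had been crossed to w1118 males. In the dom knockdown the males also brought UAS::dom-RNAi, a hairpin against domino, which encodes a nucleosome remodeller of the Tip60 complex. Both genotypes therefore carried the Dicer-2 transgene, and the insc driver was active in neuroblasts, the stem cells of the larval brain, with GFP also reaching part of their progeny. Live GFP-positive cells were sorted from brains of wandering larvae of the third instar, and RNA of 3 wild type and 3 knockdown libraries was sequenced. Pools of animals, their sex and separate batches are not stated in the sources used here, so p-values may measure technical spread only.

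Somatic cells normally keep spermatocyte and oocyte genes silent. In the male germ line, testis versions of TFIID subunits (tTAFs) and the testis meiotic arrest complex (tMAC) switch on a large set of genes in spermatocytes, many of them copies of respiratory chain, proteasome and translation genes. In the larval brain, germline genes are known for their activity in tumours of l(3)mbt mutants, where TrxT and dhd belong to the tumour signature.

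The table held 1 comparison and no value per library, so whether the 3 knockdown libraries lay apart from the 3 wild type libraries cannot be shown for any gene. Each gene had a normalized count averaged over all 6 libraries, a log2 ratio and its standard error (SE). Signs were turned here to knockdown over wild type, since the header names the control first. With that sign, dom was lower (log2 -0.58, SE 0.11) and the transgene marker gene w higher (log2 1.32, SE 0.13) per the authors' deposited table. As both genes helped to settle the sign, they do not check the labels. Dcr-2, carried as a transgene by both genotypes, was 1.87-fold higher in the knockdown (log2 0.90, SE 0.23) per the authors' deposited table, and its part in the other ratios was not tested. The smallest mean in the table was 4.47 and the median 1532, while read depth per library is unknown. Because both genotypes had 3 libraries, the mean and the ratio together imply a level for each genotype, given below as an implied level in normalized counts per library. Over all 3326 genes, the lower genotype was never implied to hold fewer than 3.07 normalized counts summed over its 3 libraries, and whether the authors moderated ratios of rare genes is not given in the sources used here. If they did, the larger ratios below are understated and the low implied levels too high. For 38 of the 3326 genes the SE was below the counting (Poisson) error of the implied counts alone. Some SEs and intervals may therefore be too small, and whether moderation was the reason was not tested.

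Of the 9 paralogs, 7 were higher and 2 lower in the knockdown. Among the 11859 genes behind the authors' adjustment, 28.0% passed in either direction, 13.9% higher and 14.2% lower. Since the rule chose genes that passed, nothing is read from the members' count. All 9 passed with a change of at least 2-fold, as did 6.38% of tested genes upwards and 2.02% downwards. The log2 ratios according to the authors' deposited table ran from -3.53 for Sdic2 to 3.72 for dhd, and the smallest change was that of can at 1.04. The member closest to the threshold was Uch-L5R, with a DESeq2 adjusted p of 0.0062 per the authors' deposited table, and genes just outside the threshold are not in the table.

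**Figure D1:**
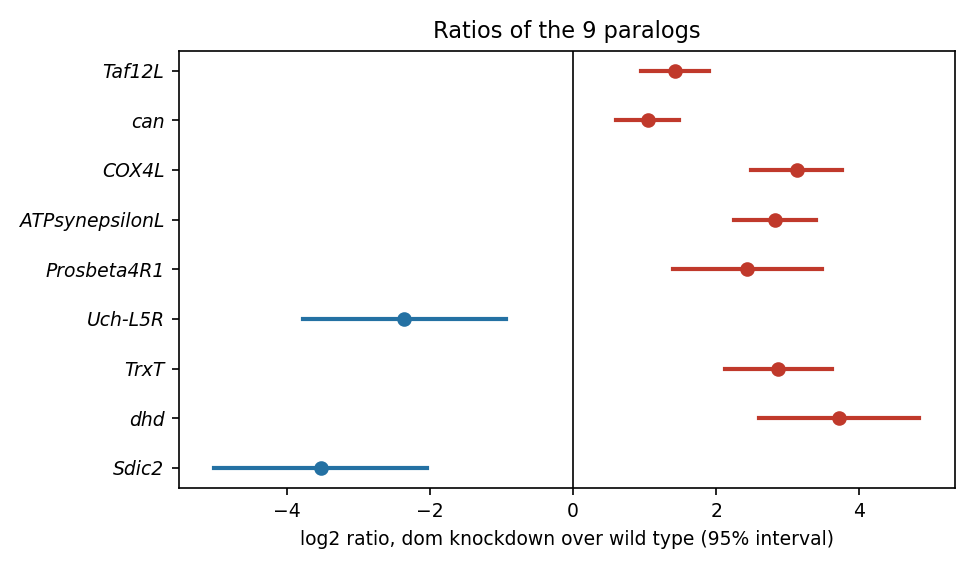
Log2 ratio of the dom knockdown over the wild type for the 9 paralogs (points), with 95% normal intervals from the authors' standard errors (lines). Red genes were higher and blue genes lower; no interval reaches 0, which the choice of the genes fixed.

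Both members with a role in transcription were higher, by the smallest folds of the 7 that rose. Taf12L (FBgn0031623, also known as rye) encodes a testis version of the TFIID subunit Taf12, which pairs through its histone fold with a Taf4-type partner. It lies at dm6 2L:4700835-4701485 on the minus strand. Its mean normalized count was 318 and its log2 ratio 1.42 (SE 0.24, interval 0.95 to 1.90) according to the authors' deposited table, a 2.68-fold increase. The implied level was 173 in the wild type and 463 in the knockdown. The cannonball gene can (FBgn0011569, 3L:10263909-10267111, minus strand) encodes the testis relative of Taf5 with WD40 repeats, and its loss arrests spermatocytes before meiosis. Its mean normalized count, not corrected for length, was 832, with a 2.06-fold increase per the authors' deposited table (log2 1.04, SE 0.23). The implied level of can in wild type brain cells was 544, against 1120 in the knockdown. Taf12L and can differed by 0.38 on the log2 scale, close to the SE of that difference, 0.33, which is approximate because both were measured in the same libraries. By these implied levels, reads were assigned to both genes in the wild type cells too. The gene can overlaps no other annotated gene, whereas Taf12L lies within an intron of another gene. The source of the reads was not tested for either gene.

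Both respiratory chain copies rose more steeply. COX4L (FBgn0033020, 2R:5353994-5354723, plus strand) encodes a copy of subunit 4 of cytochrome c oxidase, the last enzyme of the electron transport chain. Its mean normalized count was 63.5 and it was 8.72-fold higher according to the authors' deposited table (log2 3.12, SE 0.33), with implied levels of 13.1 in the wild type and 114 in the knockdown. ATPsynepsilonL (FBgn0051477, 3R:10121773-10122320, plus strand) encodes a copy of the epsilon subunit, a small part of the rotor of the mitochondrial ATP synthase. Its mean normalized count was 121 and its increase 7.08-fold per the authors' deposited table (log2 2.82, SE 0.29), from an implied level of 30.0 to 212. The log2 ratios of these genes differed by 0.30, less than the SE of the difference, 0.44.

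The proteasome copy and the deubiquitinase copy moved in opposite directions. Prosbeta4R1 (FBgn0031442, 2L:2653046-2653926, plus strand) encodes a relative of the beta4 subunit, a structural ring component of the proteasome core. It was 5.40-fold higher according to the authors' deposited table (log2 2.43, SE 0.53) at a mean normalized count of 22.3, with implied levels of 6.96 and 37.6. Uch-L5R (FBgn0030370, X:12055338-12056635, minus strand) encodes a relative of Uch-L5, a deubiquitinase that trims ubiquitin chains at the proteasome. Its mean normalized count was 8.08 and its log2 ratio -2.36 (SE 0.72, interval -3.78 to -0.94) per the authors' deposited table, 0.195 times the wild type level. The implied level was 13.5 in the wild type and 2.63 in the knockdown, so the call rests on few reads.

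Both thioredoxin genes rose. Thioredoxins reduce disulfide bonds in other proteins. TrxT (FBgn0029752, X:5310581-5311888, minus strand) encodes the thioredoxin of the male germ line, which in spermatocytes sits on the lampbrush loops of the Y chromosome. The gene was 7.32-fold higher according to the authors' deposited table (log2 2.87, SE 0.38) at a mean normalized count of 61.2, from an implied level of 14.7 to 108. The deadhead gene dhd (FBgn0011761, X:5312171-5313125, plus strand) encodes the maternal thioredoxin of the egg, which opens the protamine bridges of sperm chromatin at fertilization. It had the largest ratio of the 9, a 13.2-fold increase per the authors' deposited table (log2 3.72, SE 0.57, interval 2.59 to 4.84) at a mean normalized count of 23.5. The implied level of dhd rose from 3.32 to 43.7. The ratios of dhd and TrxT differed by 0.85 with an SE of 0.69, so they could not be ordered beyond their error.

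Sdic2 (FBgn0053497, X:20181590-20186487, minus strand) encodes a sperm dynein intermediate chain. It belongs to a row of near-identical copies that arose from a fusion of sw, the cytoplasmic dynein intermediate chain gene, with AnxB10, an annexin gene. Its mean normalized count was 7.45, and it stood at 0.0868 times the wild type level according to the authors' deposited table (log2 -3.53, SE 0.76). The implied level fell from 13.7 to 1.19. Reads of such copies can be shared or lost in counting, and the handling of reads with several matches is not given in the sources used here, so the value of Sdic2 is uncertain.

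**Figure D2:**
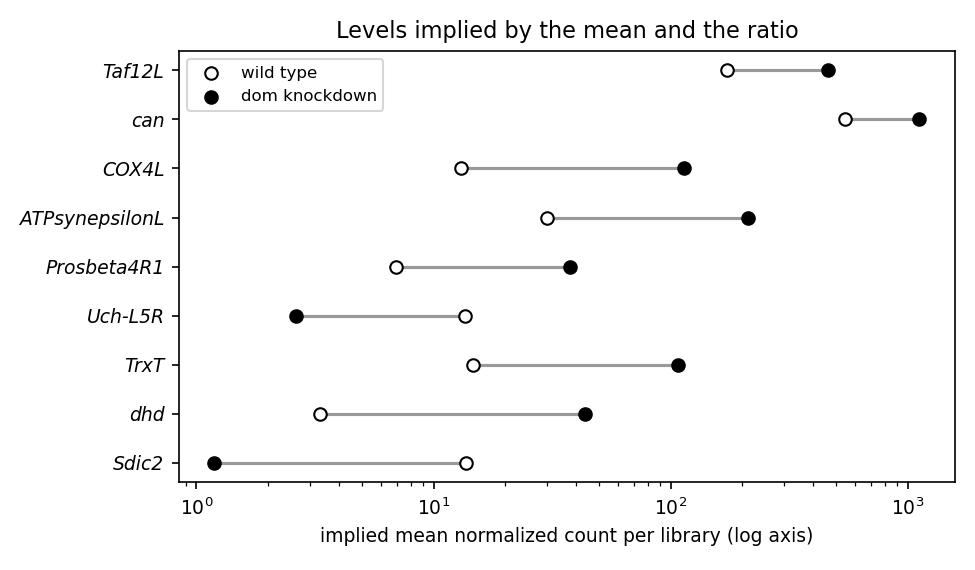
Mean normalized count per library implied for the wild type (open circles) and the dom knockdown (filled circles) from the authors' mean and ratio, on a log axis. The levels of can and Taf12L are above 100 in both genotypes, whereas Uch-L5R and Sdic2 fall from about 13.5 and 13.7 to 2.63 and 1.19.

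Per kilobase of annotated exon, the mean normalized count over all libraries was 538 for Taf12L, 282 for can and 247 for ATPsynepsilonL. COX4L followed at 87.0 and TrxT at 55.3 normalized counts per kb. Prosbeta4R1 and dhd, at 26.9 and 24.6 normalized counts per kb, were close to each other. Uch-L5R and Sdic2 were lowest, at 6.23 and 3.01 normalized counts per kb. Without values per library no spread can be set beside this order.

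Most rare genes of the table were higher. Of the 679 genes in the table whose mean was below 100 normalized counts, 581 were higher and 98 lower per the authors' deposited table. Below a mean of 10, 102 were higher and 7 lower, and Uch-L5R and Sdic2 were 2 of those 7. In that class no gene with an absolute log2 ratio under 1.52 is in the table, so smaller changes of such rare genes were not detectable at this depth. The members were chosen from these values, so their place among listed genes is given as a description.

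Set beside listed genes of similar abundance, the members lay in the upper part of the range on the higher side. Among the 401 listed genes with a mean within 2-fold of that of COX4L, 308 were higher with a median log2 ratio of 1.30, and 26 exceeded COX4L. For ATPsynepsilonL the corresponding median log2 ratio was 1.09 over 308 higher genes, of which 26 exceeded it. Likewise, 26 of 285 higher genes exceeded dhd and 32 of 307 exceeded TrxT, against 83 of 276 for Prosbeta4R1. For Taf12L and can, 57 of 297 and 57 of 280 higher genes of similar abundance had a larger ratio. On the lower side, Sdic2 had the lowest log2 ratio of the 11 lower genes of its abundance, whose median was -2.12 according to the authors' deposited table, and 3 of 11 were lower than Uch-L5R.

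**Figure D3:**
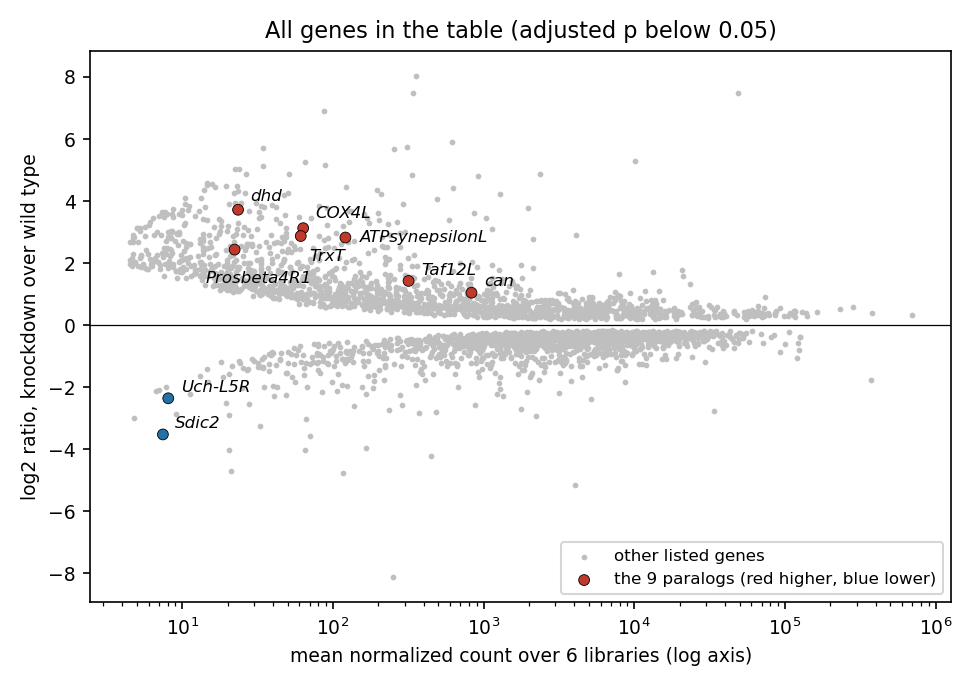
Mean normalized count over the 6 libraries (log axis) against the log2 ratio of knockdown over wild type for all 3326 genes in the table (grey), with the 9 paralogs in red (higher) and blue (lower). Uch-L5R and Sdic2 lie in the sparse region of rare, lower genes; COX4L, Prosbeta4R1, TrxT and dhd have means below 100, where most listed genes were higher, and ATPsynepsilonL, Taf12L and can have higher means.

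None of the 8 distinct housekeeping counterparts of the 9 was in the table, beside 28.0% of all tested genes. These counterparts were Taf12, Taf5, COX4, sun (the epsilon subunit of ATP synthase), Prosbeta4, Uch-L5, Trx2 (the general cytosolic thioredoxin) and sw. The 9 themselves were chosen from listed genes, so nothing is read from this contrast. Genes outside the table either failed the threshold or never entered the test, so their ratios are unknown and the difference between a copy and its counterpart was not tested. AnxB10, the other parent of the Sdic fusion, was listed as lower, at 0.671 times the wild type level per the authors' deposited table (log2 -0.58, SE 0.12). The log2 ratio of Sdic2 lay 2.95 below that of AnxB10, with an SE of 0.77 for the difference. Sdic2 was chosen from listed genes, and below a mean of 10 none with an absolute log2 ratio under 1.52 is listed. The choice therefore favoured a wide gap, and nothing is read from it.

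In the wider families of the counterparts, the share of listed genes ran from 0 of 33 proteasome subunits to 3 of 6 dynein subunits. It was 9.09% for cytochrome oxidase and ATP synthase subunits and 11.1% for the thioredoxin system. Of 15 general TFIID subunit genes 4 were listed, or 26.7% against 28.0% of all tested genes, 2 higher and 2 lower. Taf6 and Taf11 were higher (log2 0.25 and 0.27) and Taf1 and Taf3 lower (log2 -0.21 and -0.49) according to the authors' deposited table. None of the 33 proteasome subunit genes was listed. Of 22 nuclear genes for cytochrome oxidase and ATP synthase, blw (the alpha subunit of ATP synthase) and levy (subunit 6A of cytochrome oxidase) were lower, with log2 ratios of -0.37 and -0.31 per the authors' deposited table, whereas the other 20 have no entry. Of 9 genes of the thioredoxin system, Trxr2, a thioredoxin reductase gene, was higher at a log2 ratio of 2.10 (SE 0.62) and a mean normalized count of 22.9 according to the authors' deposited table. Of 6 cytoplasmic dynein subunit genes 3 were listed, a share of 50% beside 28.0% of all tested genes. The heavy chain gene Dhc64C and the genes Dlic (light intermediate chain) and robl (light chain) were lower (log2 -0.50, -0.28 and -0.24) per the authors' deposited table. The absolute log2 ratios of these listed subunits, other than Trxr2, were all below 1.04, the smallest of the 9 paralogs. However, their mean normalized counts were higher, at least 2361 (Taf11), and at such means the table holds smaller changes.

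The near relatives of the 9 in the germ line were for the most part not listed. With the members counted, 60% of testis TAF genes were listed. Of tMAC and other meiotic arrest genes 20% were listed, beside 28.0% of all tested genes. Shares of lists are over all matched genes, and how many of these entered the authors' adjustment is unknown. Of the 5 testis TAF genes, mia (the Taf6 relative) was listed beside Taf12L and can, with a 1.76-fold increase according to the authors' deposited table (log2 0.81, SE 0.25). The genes nht, encoding the Taf4 relative, and sa, encoding the Taf8 relative, were not listed. Of 10 tMAC and other meiotic arrest genes, wuc and topi were higher, with log2 ratios of 2.60 (SE 0.33) and 1.36 (SE 0.37) per the authors' deposited table. The gene wuc encodes a Lin-52 relative that binds the tMAC protein Aly, and topi a zinc finger protein of tMAC, while aly, comr and tomb were among the 8 not listed. Besides Prosbeta4R1, 0 of 13 other proteasome copies were listed, including its tandem neighbour Prosbeta4R2. Besides COX4L and ATPsynepsilonL, 0 of 18 other respiratory chain copies were listed, among them COX5BL, ATPsynbetaL and Cyt-c-d. Sdic1, Sdic3, Sdic4 and Dic61B were not listed either.

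Few genes used later in sperm formation were listed, 5% of cup and comet genes and 8.33% of spermatid genes beside 28.0% of all tested genes. List genes that never entered the authors' adjustment lower these shares, and their number is unknown. Of 20 cup and comet genes, which are transcribed after meiosis, c-cup was the listed one, with a log2 ratio of 8.04 (SE 0.49) according to the authors' deposited table. Its implied level was only 2.71 in the wild type, against 712 in the knockdown. Of 24 spermatid genes, ProtB and Mst77F were higher (log2 4.57, SE 0.71, and log2 1.12, SE 0.43) per the authors' deposited table. Both encode proteins that package sperm chromatin in place of histones, and both were rare, with mean normalized counts of 14.7 and 20.7. The shares of ribosome and translation copies and of other copies, 30.8% and 28.6%, were near that of all tested genes. Of 13 ribosome and translation copies, RpS10a, RpL37-2 and RpL22-like were higher (log2 2.83, 4.36 and 3.02) and the initiation factor gene eIF4G2 was lower (log2 -0.30) according to the authors' deposited table. RpS10a, RpL37-2 and RpL22-like were rare, with mean normalized counts of 48.7, 13.9 and 8.03 and SEs of 0.36, 0.72 and 0.71. Of 14 other copies, ttm3, a relative of the mitochondrial import gene Tim50, and Arp53D, an actin relative, were higher (log2 3.64 and 2.45) per the authors' deposited table. Their mean normalized counts were 7.67 and 8.25, with SEs of 0.75 and 0.71. The testis tubulin gene betaTub85D and the maternal tubulin gene gammaTub37C were lower (log2 -0.66 and -0.98) according to the authors' deposited table.

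Germline identity genes were split. Of 15 such markers 6 were listed, 3 higher and 3 lower, a share of 40% beside 28.0% of all tested genes. The gap junction gene zpg and the translational repressor gene nanos were higher with log2 ratios of 4.20 (SE 0.46) and 4.34 (SE 0.60), and bgcn, a partner of bam, at 0.96, per the authors' deposited table. In contrast, tud and orb, at mean normalized counts of 31211 and 2159, were lower (log2 -0.71 and -0.59) according to the authors' deposited table. The markers vas, bam, osk, ovo and otu were among the 9 not listed. Of 8 markers of the somatic gonad 25% were listed. Fas3 was higher and fru lower (log2 0.35 and -1.11) per the authors' deposited table, and tj, zfh1 and eya were not listed. Both listed gonad markers are also known from the nervous system. Listed markers of other cell types moved as well. All 4 listed of 9 glia markers (44.4%) were higher, with a median log2 ratio of 0.76, according to the authors' deposited table. All 4 listed of 8 blood cell markers (50%) were lower, with a median of -1.35, per the authors' deposited table. The glia markers nrv2, moody, Eaat1, Gs2 and loco and the blood cell markers NimC1, srp, He and lz were not listed. Whether such cells were in the sort was not tested, nor was their part in the ratios of the paralogs. In sorted bulk samples a change in the number of cells of a type and a change of RNA per cell cannot be told apart.

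Taken over all 10 germline lists, 20 of 134 genes other than the 9 were listed, or 14.9%, beside 28.0% of all tested genes. Of the 20, 14 were higher and 6 lower, with a median log2 ratio of 1.91, against a median of -0.20 over all listed genes, per the authors' deposited table. Direction followed abundance: 10 of the 11 with a mean below 100 were higher, beside 85.6% of all listed genes of that class, and 4 of the 9 with a mean of at least 100, beside 40.2%. How many of the 134 genes were expressed highly enough to enter the authors' adjustment is unknown. The lists were drawn up with results of these data known.

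**Figure D4:**
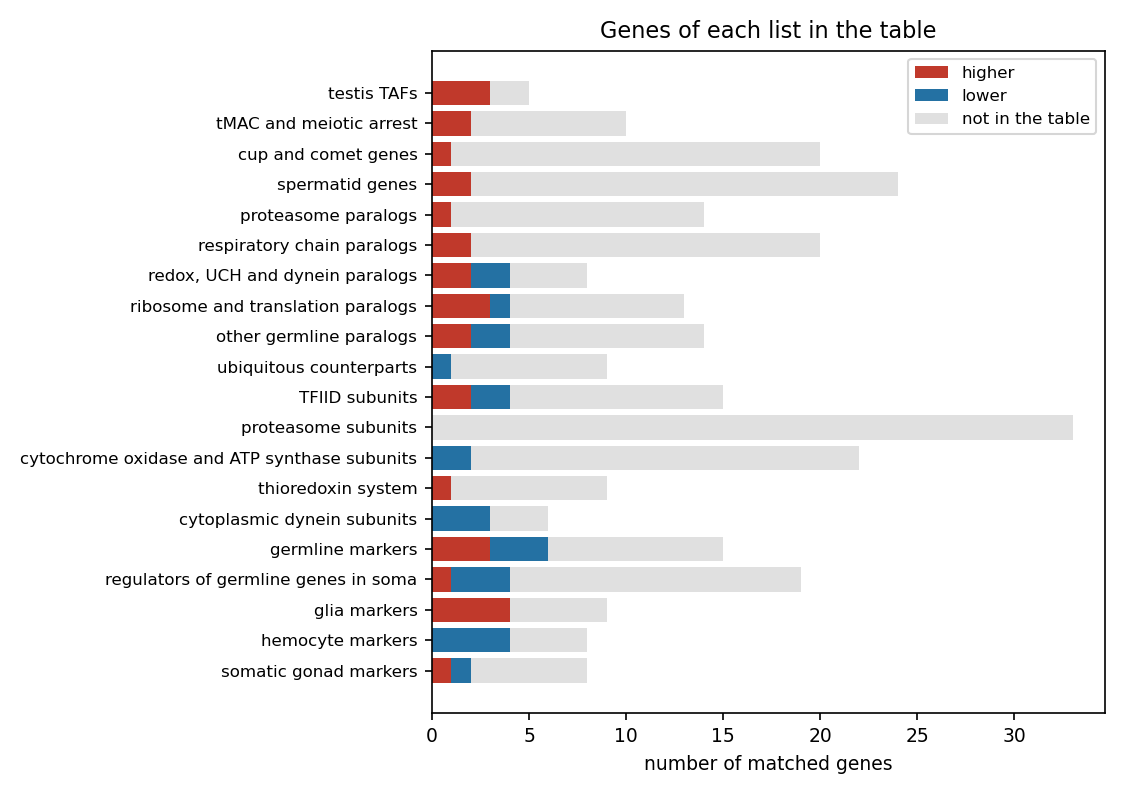
Number of genes in each list that were higher (red), lower (blue) or not in the authors' table (grey; ratio unknown). Most genes of every germline list except the testis TAFs and the list of redox, UCH and dynein copies are grey, and the general proteasome subunits are all grey.

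Genes known to hold germline genes silent or active in somatic cells were also looked up. Of 19 such genes 4 were listed, or 21.1% beside 28.0% of all tested genes. The remodeller gene Mi-2, the histone demethylase gene Kdm5 (also known as lid, needed for dhd expression in the ovary) and the corepressor gene CoRest were lower, with log2 ratios of -0.45, -0.35 and -0.38 according to the authors' deposited table. The gene mip120, for a subunit of the Myb-MuvB complex, was higher at 0.47 per the authors' deposited table. The tumour suppressor gene l(3)mbt and the genes HDAC1, Sin3A, E2f2 and Rbf were among the 15 not listed.

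The genes beside each member in the genome were looked up in the same comparison. TrxT and dhd are neighbours that point away from each other with 282 bp between them. At 2004 bp beyond dhd, with CG4198 in between, lies CG15930, which was higher at a log2 ratio of 4.08 (SE 0.17) and a mean normalized count of 490 according to the authors' deposited table. The ratios of dhd, TrxT and CG15930 thus lay between 2.87 and 4.08. The genes CG4198, between dhd and CG15930, and snf, 79 bp beyond the end of TrxT, were not listed, so not every gene of this stretch passed the threshold.

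Prosbeta4R1 lies in a row of listed genes. The 3 genes before it, CG9962, CG43851 and CG33125, were higher with log2 ratios of 2.85, 2.67 and 2.67, and the odorant receptor gene Or23a, 122 bp after it, at 3.69 (SE 0.64), per the authors' deposited table. The SEs of the 5 genes ran from 0.47 to 0.77. Prosbeta4R2, whose start lies within the last stretch of Or23a, was not listed. All 5 listed genes of the row were rare, with mean normalized counts from 5.12 to 42.4 according to the authors' deposited table.

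Around COX4L, IFT20, an intraflagellar transport gene 1871 bp away, was higher at a log2 ratio of 1.11 (SE 0.44), and lncRNA:CR42646, 8529 bp away, at 4.86 (SE 0.25), per the authors' deposited table. CG10395 and CG10417, which are abundant, were slightly higher (log2 0.23 and 0.34) according to the authors' deposited table. Taf12L lies within an intron of dcma, which is transcribed from the opposite strand and was higher at a log2 ratio of 1.05 (SE 0.15) per the authors' deposited table. Taf12L exceeded dcma by 0.38 on the log2 scale, with an SE of 0.29 for the difference. The labels do not state whether strand was kept, so intron reads of dcma could count towards Taf12L, and their share was not tested. Uch-L5R, a gene of 1 exon, lies within introns of Ten-a and lncRNA:CR43960 on the opposite strand, and neither of these was listed. No member shares exon bases with another annotated gene.

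Sdic2 has Sdic1 and Sdic3 on either side, at 2951 and 2952 bp, and neither was listed. AnxB10, 8075 bp away, was lower as given above. Phf7, 15759 bp away, whose product reads histone marks and supports male identity of germ cells, was higher at a log2 ratio of 1.33 (SE 0.25) according to the authors' deposited table. Beside can, the pheromone receptor gene Or67d, at 6092 bp, was higher at 2.15 (SE 0.24), and beside ATPsynepsilonL the carbonic anhydrase gene CAH7, at 1691 bp, was higher at 0.59 (SE 0.18), per the authors' deposited table.

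Altogether, 8 of the 9 members had another listed gene within 10 kb, as did 76.3% of all 3264 listed genes with a position. For 6 of the 9 at least 1 gene within 10 kb moved at least 2-fold in the same direction. The same held for 37.3% of the 983 listed genes that themselves changed at least 2-fold, with higher and lower genes pooled. The 6 were Taf12L, can, COX4L, Prosbeta4R1, TrxT and dhd, all of them higher. Taf12L counts only through dcma, in whose intron it lies and whose reads could count towards it. TrxT and dhd count as each other's neighbour, and both also have CG15930 within 10 kb. These values come from the comparison that chose the members and are a description.

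**Figure D5:**
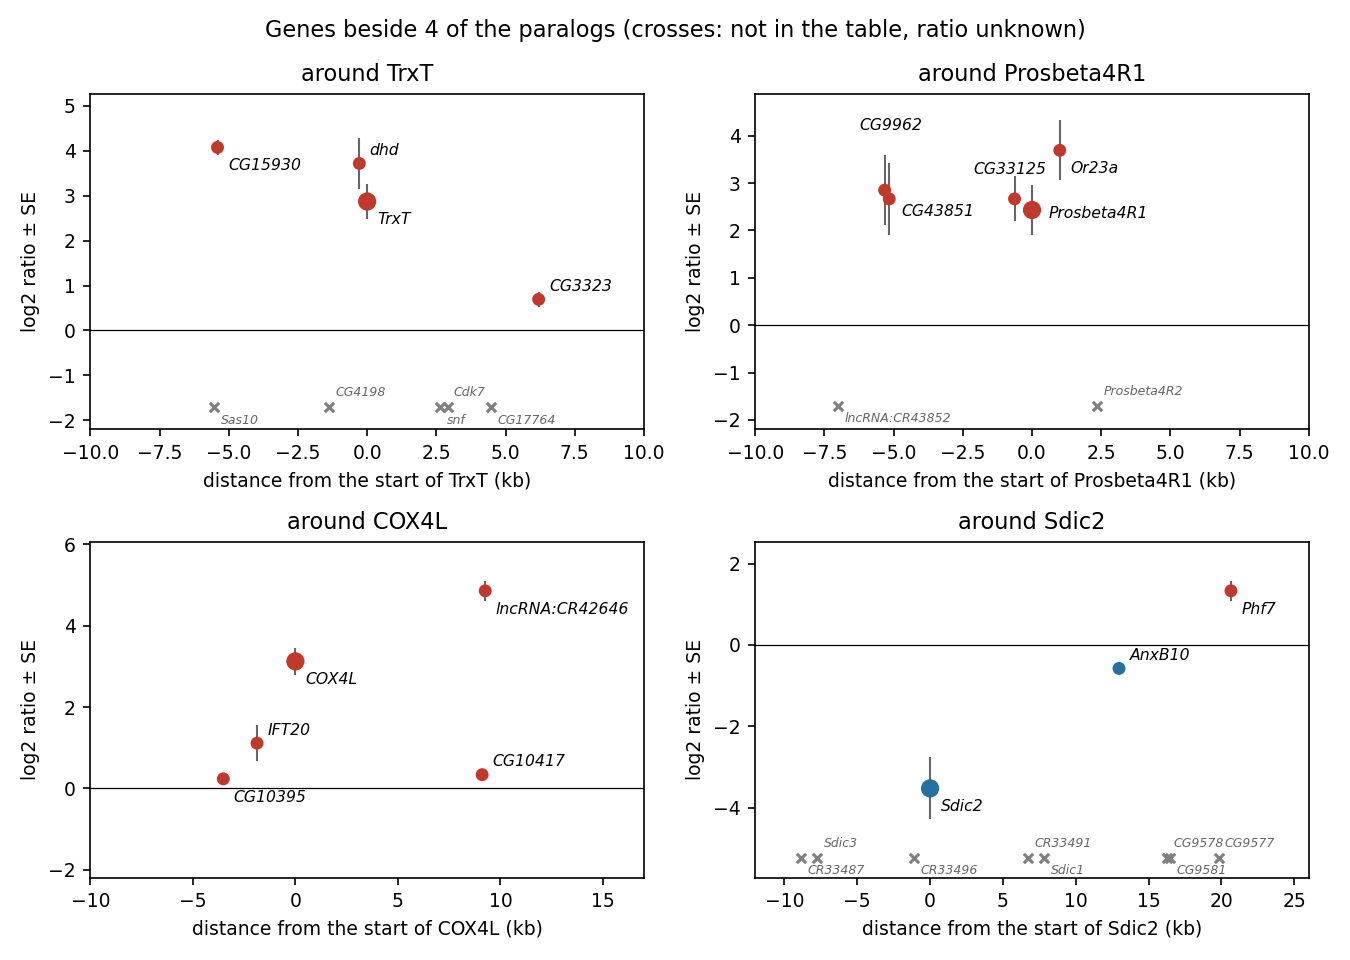
Log2 ratio of knockdown over wild type (± SE) of genes beside TrxT, Prosbeta4R1, COX4L and Sdic2, by the distance of each gene's start from that of the member (large point), in kb along the member's strand. Red genes were higher, blue genes lower, and crosses at the foot mark genes not in the table; dhd and CG15930 rose with TrxT, and 4 neighbours rose with Prosbeta4R1, while Sdic1 and Sdic3 beside Sdic2 are crosses.

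Position and gene structure were not used to choose the members. Of the 9, 4 lie on the X chromosome (Uch-L5R, TrxT, dhd and Sdic2), and both lower genes are among them. TrxT and dhd are neighbours, and the share of all tested genes on X was not counted, so nothing is read from this. Of the 9 members, 5 carry their coding sequence in 1 exon (COX4L, ATPsynepsilonL, Uch-L5R, TrxT and dhd). The dhd protein has 107 codons and that of Trx2 has 106, while TrxT has 157. Taf12L is shorter than the longest form of Taf12, with 138 against 196 codons, and can is longer than Taf5, with 942 against 704. COX4L has 176 codons and COX4 has 182, ATPsynepsilonL has 64 and sun 61, Prosbeta4R1 has 215 and Prosbeta4 has 201, and Uch-L5R has 340 and Uch-L5 has 324. Sdic2, with 543 codons, is shorter than the longest form of sw, with 663.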

How the data were processed

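For the authors' work the submitters' processing notes name build dm6 and the tools STAR (2.3.0e), HTSeq (0.6.1), DESeq2, FastQC (0.11.2) and SAMtools (0.1.19). The kit was Illumina TruSeq, per the labels' protocols. Per the file headers, the authors gave a mean of normalized counts over all libraries (a signal never below 0), a log2 ratio with its standard error, a Wald statistic (a score) and, for each gene, the p-value before and after adjustment. The table, encoded in UTF-7, was decoded, and the deposited log2 ratio was turned to knockdown over wild type. Every direction given here rests on that reading of the header. The statistic equalled the ratio over its standard error (largest difference 9.77e-14), and p was the two-sided normal p. Inverting the Benjamini-Hochberg adjustment gave 11859 genes (within 0.01 in 2883 rows); tested on simulated data, this was exact in 5 of 5 runs of 12000 genes.

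The authors' DESeq2 comparison was used without a new test, since no value per library was used. Intervals are 95% normal limits. Implied levels are 2m/(1 + r) and r times that, for mean m and ratio r. Symbols matched 3264 of 3326 IDs, and 5 symbols of the 20 gene lists matched none. Positions and exons are from Ensembl release 115 (BDGP 6.54, the dm6 assembly). The members, lists and tests were chosen with earlier results of these data known. The genes named were the 9 members, listed counterparts and neighbours, dom, w, Dcr-2 and all listed genes of a list (the 5 with the smallest adjusted p where more were listed). Phf7 and genes named as not listed were chosen after their values were seen. Analyses were run with Python 3.11.15, pandas 2.3.3 and scipy 1.17.1. Protein and promoter sequences were not analysed here.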

Additional observations from a re-analysis of the deposited data

How the results depend on the processing

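The counts of members, 7 higher and 2 lower, were the same at an adjusted p below 0.01 and with ratios shifted by 0.1 up or down. They were also the same at a minimum change of 2-fold (chosen after seeing the data). The smallest absolute log2 ratio of a member was 1.04 and the largest DESeq2 adjusted p 0.0062. None of these settings could therefore change the counts, and nothing is read from their stability. When means under 50 were left out, 5 higher members and 0 lower members were left. The lower members Uch-L5R and Sdic2 and the higher members Prosbeta4R1 and dhd had means below 50. Of the other germline genes, 14 higher and 6 lower, that filter left 4 higher and 6 lower ones, so the majority turned to lower. In the whole table, 152 genes were higher and 45 lower at means from 50 to 100. From 100 upwards, 1065 were higher and 1582 lower, so nothing particular to germline genes is read from the turn. A minimum change of 2-fold left 12 higher and 0 lower germline genes, beside 757 higher and 239 lower in the whole table. The number of members with a listed gene nearby was 6 at 5 kb and 8 at 20 kb, beside 63.3% and 85.3% of all listed genes with a position. It was 6 at 10 kb with a neighbour at least 2-fold changed in the same direction. That held for 37.3% of the listed genes that themselves changed at least 2-fold. No paired analysis was possible because the table holds no values per library, and for that reason leaving out replicates was not run either. Alignments of the proteins were not run. Low counts limit the precision of Uch-L5R, Sdic2, Prosbeta4R1 and dhd most, with standard errors from 0.53 to 0.76.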
